A study of Mus musculus with 72 samples.

Results

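Natural killer (NK) cells and cytotoxic T cells kill other cells with the products of a small set of genes, and 10 of those genes were followed here in the blood of irradiated mice. They were Gzma, Gzmb, Prf1 and Nkg7, which serve the cytotoxic granule, Klrb1c, Ncr1, Klrd1 and Klrk1, which encode surface receptors, and the transcription factors Eomes and Tbx21. The 10 genes were chosen by name, and each was read from its brightest detected probe, out of 16086 genes with a detected probe on the arrays. All 10 were detected, and the probes were well above background on all 72 arrays for 9 of them and on 71 for Klrk1. Ncr1, Klrb1c and Eomes were thus measurable in the blood of every group.

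The mice were male C57BL/6 animals of 8 to 10 weeks, each blood sample coming from 1 mouse and going onto 1 array. Sham-irradiated controls, which sat in holders on the wheel of the neutron beam with the beam off, numbered 5 at day 1, 5 at day 3 and 6 at day 7. Neutrons from an accelerator beam, which also carries a share of γ rays, were given at 0.25 Gy (6, 6 and 5 mice at days 1, 3 and 7) or at 1 Gy (6 mice at day 1 and 6 at day 7). X-rays were given at 1 Gy (6, 5 and 5 mice at days 1, 3 and 7) or at 4 Gy (5 mice at day 1 and 6 at day 7). They came from another machine at a far higher dose rate, for which the paper describes no sham. Handling and dose rate thus cannot be told apart from the type of radiation. The blood was drawn from the heart at death, and RNA of all its cells was measured after removal of globin transcripts. A higher or lower proportion of a cell type therefore cannot be told apart from more or less RNA per cell in any result that follows.

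NK cells are innate lymphocytes that attack stressed, infected or transformed cells without prior priming. A balance of activating and inhibitory receptors decides whether the granules are released, and perforin then lets granzymes into the target cell. T-bet, encoded by Tbx21, and Eomes drive the maturation of NK cells and the effector programme of CD8 T cells. Most of the 10 genes are shared by NK cells and activated cytotoxic T cells, whereas Ncr1 and Klrb1c (NK1.1) are more closely tied to NK cells in this mouse strain.

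T-box factors such as T-bet and Eomes, and Runx factors, are known regulators of cytotoxic genes. The upstream regions of 4 of the 10 genes are shown. They include those of the 3 genes that held both motifs described here. The RefSeq promoter table (GRCm38.p6) held 9 of the 10 genes, all but Klrd1, and the 250 bases before each start were searched on both strands for 2 short motifs. The T-box letters were TCACAC, which read as GTGTGA on the opposite strand. The Runx letters were TGTGGT, which read as ACCACA on the opposite strand. Capitals mark those letters, which did not overlap each other in any window of the 10 genes. Gzmb lies on the minus strand (chr14:56262335-56262584), Ncr1 on the plus strand (chr7:4337465-4337714, the first of 2 overlapping windows), Nkg7 on the plus strand (chr7:43436888-43437137) and Klrb1c on the minus strand (chr6:128788642-128788891).
Gzmb: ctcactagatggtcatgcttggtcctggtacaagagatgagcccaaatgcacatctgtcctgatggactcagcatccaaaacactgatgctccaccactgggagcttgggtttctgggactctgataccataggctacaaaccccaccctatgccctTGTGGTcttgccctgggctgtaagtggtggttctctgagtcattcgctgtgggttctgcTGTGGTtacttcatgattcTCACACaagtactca
Ncr1: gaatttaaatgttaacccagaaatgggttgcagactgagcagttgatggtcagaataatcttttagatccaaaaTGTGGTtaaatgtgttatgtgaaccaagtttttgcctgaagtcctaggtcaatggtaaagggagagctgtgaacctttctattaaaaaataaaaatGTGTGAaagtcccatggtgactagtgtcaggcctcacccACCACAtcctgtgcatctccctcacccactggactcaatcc
Nkg7: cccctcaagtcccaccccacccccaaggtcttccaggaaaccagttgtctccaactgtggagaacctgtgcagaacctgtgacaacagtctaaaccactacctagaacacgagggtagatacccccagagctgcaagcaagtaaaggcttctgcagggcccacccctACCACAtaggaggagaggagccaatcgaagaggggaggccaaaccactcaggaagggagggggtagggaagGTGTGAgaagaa
Klrb1c: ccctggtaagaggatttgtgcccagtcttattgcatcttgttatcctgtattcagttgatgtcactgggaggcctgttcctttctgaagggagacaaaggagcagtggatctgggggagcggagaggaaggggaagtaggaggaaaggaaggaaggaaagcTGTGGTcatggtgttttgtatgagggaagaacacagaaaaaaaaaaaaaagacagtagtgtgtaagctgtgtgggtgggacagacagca
The T-box letters occurred in the windows of 3 of the 9 genes, 15 bases before the start in Gzmb, 80 in Ncr1 and 12 in Nkg7, and in 12.3% of the 32851 windows of the table. The Runx letters occurred in 7 of the 9 genes, all but Eomes and Tbx21, and in 14.0% of all windows. Gzmb, Ncr1 and Nkg7 held both, as did 2.05% of all windows. These are matches of letters, not tested binding sites.

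Levels are given on a log2 scale relative to the median detected probe of the same array, so that a difference of 1 is a doubling relative to that median. Levels of different genes come from different probes and are not compared. A gene was said to have risen or fallen when limma gave an unadjusted p below 0.001 and a false discovery rate below 0.05 over all 16086 genes, and all adjusted p-values are from limma. Comparisons within a day share the same control mice. The Klrk1 probe carries a transcript identifier of Klrk1, but the array file places it at chr16:78233089-78233148 (mm9) while RefSeq places Klrk1 on chromosome 6, so its target is less certain than the others.

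Depth of the arrays differed between groups. At day 1 the median probe intensity was 66.8 to 157 after 1 Gy of neutrons, against 49.7 to 73.6 in the controls. At day 7 it was 46.2 to 96.4 after 4 Gy of x-rays and 26.3 to 36.0 after 1 Gy of x-rays. After 0.25 Gy of neutrons it was 15.8 to 28.0 at that day. In the 1 Gy neutron group the median probe intensity was 9.52 to 16.8 at day 7, against 32.2 to 50.5 in the controls of that day, and 40.2% to 50.3% of spots were well above background, against 54.3% to 63.9%. Hepatocyte markers, 8 of 12 of which were detected while Alb, Apoa1, Ttr and Fga were not, varied widely between mice: their mean level ran from 1.61 to 7.85 in day 1 controls and from 8.74 to 9.50 after 4 Gy of x-rays at day 1. At day 7 it ran from -0.77 to 1.80 in controls and from -0.50 to 7.83 after 4 Gy of x-rays. The part of these markers in the results was not tested beyond the values given beside each result.

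**Figure D1:**
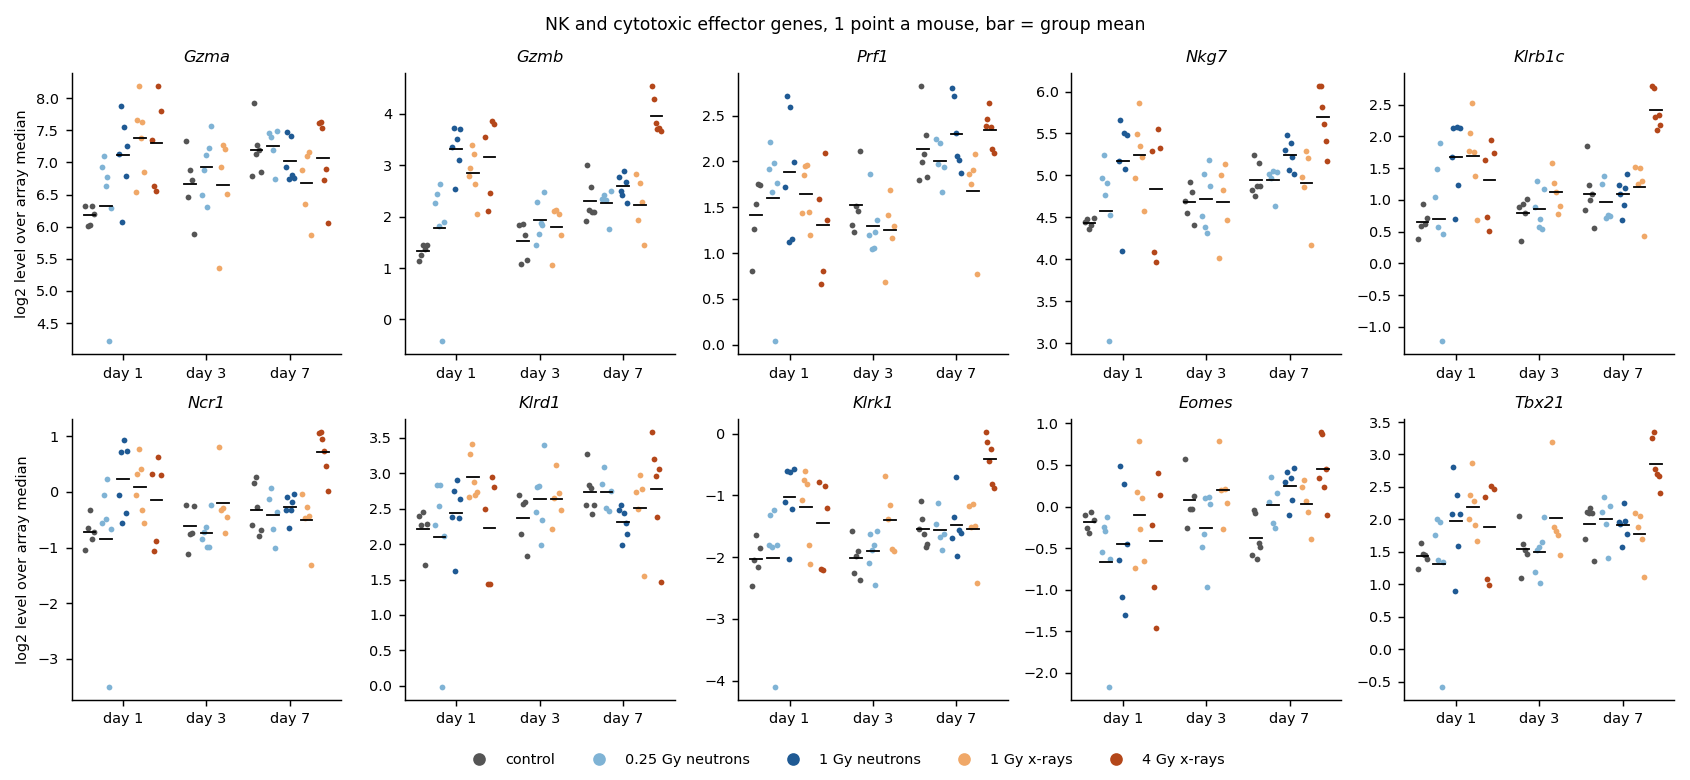
Level of each of the 10 genes in every mouse (vertical axis, log2 relative to the array's median detected probe) by day and exposure (colour), with 1 point per mouse and a bar at the group mean. Gzmb stands above the controls at day 1 after 1 Gy of neutrons, 1 Gy of x-rays and 4 Gy of x-rays, and at day 7 its 6 mice after 4 Gy of x-rays lie between 3.66 and 4.54 against 1.91 to 3.01 in the controls.

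Gzmb, the granzyme that starts caspase-dependent death in target cells, rose at day 1 after each of the 3 higher exposures. Its level in the 5 controls was 1.13, 1.26, 1.46, 1.37 and 1.46. After 1 Gy of neutrons it ran from 2.54 through a median of 3.43 to 3.72, and after 1 Gy of x-rays from 2.05 through 2.87 to 3.39. After 4 Gy of x-rays it was 3.56, 2.11, 2.47, 3.85 and 3.80. Every mouse of these 3 groups was above every control, although replicates 2 and 3 of the 4 Gy group lay well below the other mice of that group. The rise was 1.99 ± 0.21 (log2, SE) or 3.97-fold after 1 Gy of neutrons (adjusted p = 0.000118, n = 6 and 5), 1.51 ± 0.21 or 2.84-fold after 1 Gy of x-rays (adjusted p = 0.00186, n = 6 and 5), and 1.82 ± 0.33 or 3.54-fold after 4 Gy of x-rays (adjusted p = 0.000868, n = 5 and 5). The rise remained called in each of the fits that left out 1 mouse.

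Gzma, a granzyme that resting NK cells already store, rose at day 1 after 1 Gy of x-rays. Controls were at 6.32, 6.02, 6.03, 6.33 and 6.20, and the 6 irradiated mice ran from 6.55 through a median of 7.50 to 8.18, all above the controls. The difference was 1.20 ± 0.25 (adjusted p = 0.0108), and it was called in 3 of 11 fits that left out 1 mouse. With 4 Gy of x-rays Gzma was at 7.36, 6.64, 6.56, 8.19 and 7.81, again all above the controls, but the difference of 1.13 ± 0.30 missed the threshold for the unadjusted value although its adjusted p = 0.00731. With 1 Gy of neutrons the groups overlapped, and the difference was 0.94 ± 0.27 (adjusted p = 0.0174).

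Of the remaining members none passed the test at day 1 by its chosen probe, and several lay higher on average. A second, dimmer probe of Nkg7 did pass after 1 Gy of x-rays (0.86 ± 0.18, adjusted p over all probes = 0.00894). The second probes of Klrb1c and Eomes did not pass at day 1. Only Gzmb of the 10 genes was called higher after 1 Gy of neutrons, against 5.63% of all genes, so the count was not far from the background, and 9 of the 10 differences were above 0 with a median of 0.83 against -0.08 for all genes. The number of members called was 5 without replicate 3 of the irradiated mice and 7 with arrays centred on spike-in RNA. With the spike-in reference the median of all genes was 0.41, against 1.33 for the members. The shares of all genes called in those fits are not given here. For 1 Gy of x-rays 2 of 10 were called higher, against 2.67% of all genes, and all 10 differences were above 0 with a median of 0.81 against 0.00. After 4 Gy of x-rays 1 of 10 was called higher, against 12.8% of all genes, and the median was 0.51 against -0.09. Groups did not overlap for 1, 5 and 2 of the 10 genes in these comparisons, all in the upward direction, against 6.39%, 4.08% and 17.2% of all genes. The 5 after 1 Gy of x-rays were Gzma, Gzmb, Klrd1, Tbx21 and Nkg7.

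The receptors and transcription factors at day 1 gave values without a call. Klrb1c differed by 1.02 ± 0.26 after 1 Gy of neutrons (adjusted p = 0.0104), 1.05 ± 0.27 after 1 Gy of x-rays (adjusted p = 0.0233) and 0.67 ± 0.28 after 4 Gy of x-rays (adjusted p = 0.0604). Ncr1 (NKp46, an activating receptor) differed by 0.94 ± 0.29, 0.81 ± 0.23 and 0.57 ± 0.33 in the same order. Klrk1 (NKG2D, the receptor for stress-induced ligands) differed by 1.01 ± 0.27, 0.84 ± 0.28 and 0.58 ± 0.31. Within the 4 Gy group Ncr1 split, at 0.31, -1.06, -0.88, 0.63 and 0.31, with the same 2 low mice as for Gzmb, against -1.04 to -0.32 in the controls.

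Prf1, which encodes perforin, was not called at day 1. It differed by 0.46 ± 0.32 after 1 Gy of neutrons, 0.22 ± 0.21 after 1 Gy of x-rays and -0.12 ± 0.29 after 4 Gy of x-rays, with 95% intervals from -0.23 to 1.16, from -0.23 to 0.67 and from -0.75 to 0.52. Eomes differed by -0.27 ± 0.30, 0.08 ± 0.24 and -0.24 ± 0.32. Its second, dimmer probe gave 0.15 ± 0.27, 0.27 ± 0.16 and 0.04 ± 0.42, so the probes disagreed in direction after 1 Gy of neutrons and 4 Gy of x-rays. Tbx21 differed by 0.54 ± 0.28, 0.75 ± 0.19 and 0.44 ± 0.32. Klrd1 (CD94, the partner chain of NKG2 receptors) differed by 0.22 ± 0.23, 0.72 ± 0.19 and 0.00 ± 0.32, and Nkg7, a granule membrane protein, by 0.73 ± 0.24, 0.81 ± 0.19 and 0.41 ± 0.31.

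Scan date and hepatocyte markers moved with some of these groups. Of the 1 Gy neutron arrays of day 1, 4 shared a scan date with the 5 controls, and within that date the difference was 1.95 for Gzmb, 0.98 for Gzma, 1.02 for Klrb1c, 0.97 for Ncr1 and 0.94 for Klrk1. With scan date as a term in the fit Gzmb stayed called (adjusted p = 0.00108). None of the x-ray arrays of day 1 shared a date with the controls, so scan date and exposure cannot be told apart in these groups. A random block for date cannot separate them either. With that block Gzma after 1 Gy of x-rays was no longer called (1.25 ± 0.33, adjusted p = 0.0748) while Gzmb was (1.54 ± 0.29, adjusted p = 0.0327). Hepatocyte markers were above the highest control in 5 of 6 mice after 1 Gy of neutrons, 2 of 6 after 1 Gy of x-rays and 5 of 5 after 4 Gy of x-rays. Without such arrays the rise after 1 Gy of x-rays was 1.34 for Gzma and 1.57 for Gzmb, both called; for the other exposures too few arrays were left for that fit. With another background correction (normexp) no member was called at day 1 after either dose of x-rays, with differences from 0.03 to 1.40 and from -0.27 to 1.37. Means of the platelet markers were 6.39, 6.04 and 6.23 after 1 Gy of neutrons, 1 Gy of x-rays and 4 Gy of x-rays against 5.36 in controls, and those of the red cell markers were 2.00, 1.81 and 0.70 against 4.01; their part in the result was not tested.

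At 0.25 Gy of neutrons no member was called at any day. At day 1, 6 of 10 differences were above 0 with a median of 0.04, and 0.00622% of all genes were called in either direction. An unadjusted p below 0.05 was found for 0 of 10, against 2473 of all 16086 genes. This group held 1 mouse, replicate 5, that was lowest for all 10 genes: the mean of its 10 levels was -0.48 against 1.53 to 2.19 in the other 5 mice. Its means of the T cell (0.94), B cell (0.47), monocyte (1.44) and neutrophil (1.37) markers were the lowest of the group as well, and its hepatocyte marker mean of 9.85 was the highest, against 3.19 to 7.38. Without that mouse 9 of 10 differences were above 0, from -0.19 for Eomes to 0.88 for Gzmb, with a median of 0.44, and still none was called.

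At day 3 the members lay close to the controls. Gzmb was at 1.84, 1.07, 1.86, 1.65 and 1.16 in controls, ran from 1.45 to 2.49 with a median of 1.86 after 0.25 Gy of neutrons, and was at 1.05, 2.10, 2.12, 2.06 and 1.65 after 1 Gy of x-rays. These groups overlapped. After 0.25 Gy of neutrons 0 of 10 genes were called against 1.54% of all genes in either direction, with a median difference of 0.05 and 0 genes at an unadjusted p below 0.05. None of the 10 was called after 1 Gy of x-rays, against 1.57%, with a median of 0.28. By the chosen probes only Klrk1 had an unadjusted p below 0.05 there (0.62 ± 0.26, adjusted p = 0.236). The second, dimmer Eomes probe also did (0.89 ± 0.25, adjusted p over all probes = 0.102), while the chosen Eomes probe gave 0.12. Over all 16086 genes, 3870 and 3000 had an unadjusted p below 0.05 after 0.25 Gy of neutrons and 1 Gy of x-rays.

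**Figure D2:**
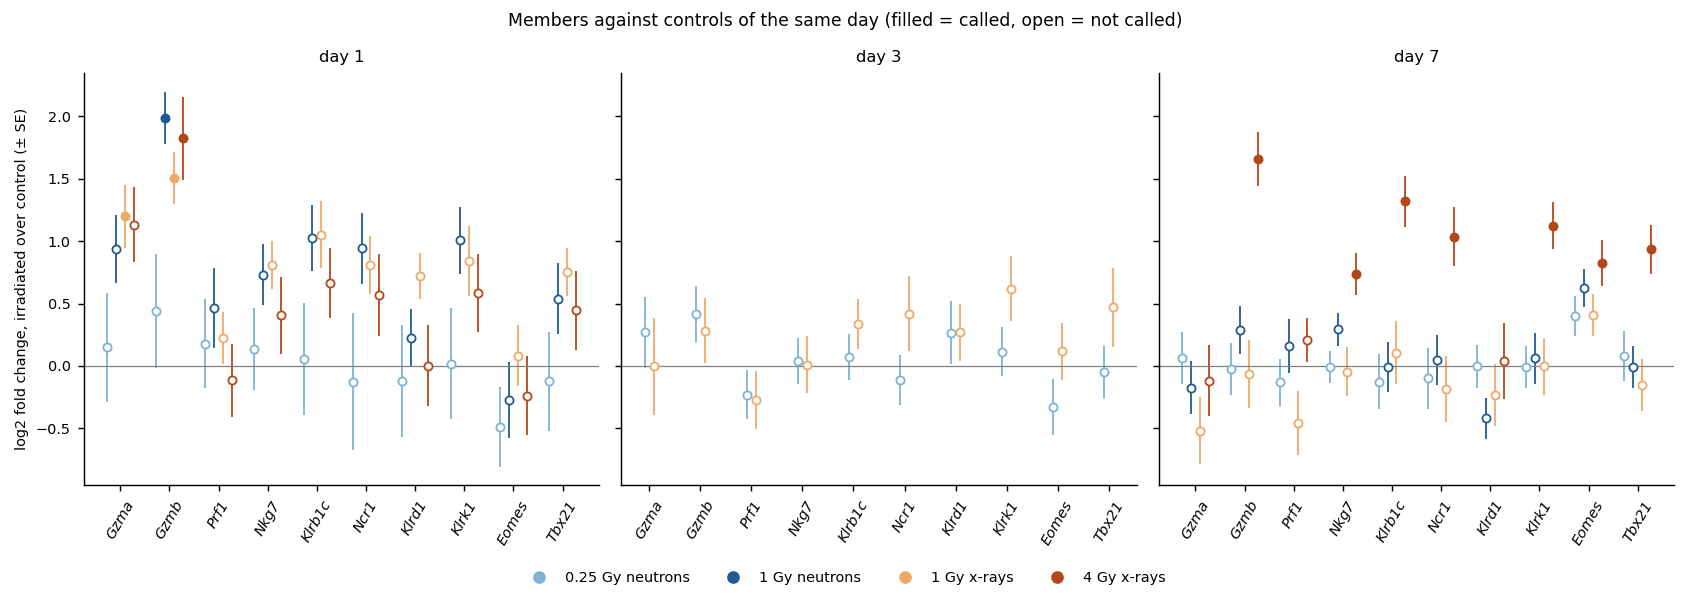
Difference of each gene from the controls of the same day (vertical axis, log2 fold change ± SE) at days 1, 3 and 7, coloured by exposure; filled points passed the test and open points did not. At day 7 the 7 filled points all belong to 4 Gy of x-rays, from 0.74 for Nkg7 to 1.66 for Gzmb, while Gzma, Prf1 and Klrd1 sit between -0.12 and 0.21.

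At day 7 after 4 Gy of x-rays, 7 of the 10 genes rose: Gzmb, Nkg7, Klrb1c, Ncr1, Klrk1, Eomes and Tbx21. Over all genes 7.71% were called higher in that comparison. The median difference of the members was 0.88 against -0.05 for all genes, and 9 of 10 were above 0. The groups did not overlap for 4 genes in the upward direction, Gzmb, Klrb1c, Klrk1 and Tbx21, against 7.96% of all genes.

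Gzmb ran from 1.91 through a median of 2.11 to 3.01 in the 6 controls and from 3.66 through 3.77 to 4.54 in the 6 mice after 4 Gy of x-rays, without overlap. The rise was 1.66 ± 0.22 or 3.16-fold (adjusted p = 0.000128). Nkg7 ran from 4.75 through 4.87 to 5.24 in controls and from 5.17 through 5.71 to 6.07 after irradiation, with a small overlap, and rose by 0.74 ± 0.17 (adjusted p = 0.0052). Gzma and Prf1, which encode the other granzyme and the pore-forming protein, were not called: they differed by -0.12 ± 0.28 (95% interval -0.73 to 0.49) and 0.21 ± 0.18 (-0.17 to 0.59).

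Among the receptors, Klrb1c ran from 0.56 through 1.05 to 1.85 in controls and from 2.11 through 2.32 to 2.79 after 4 Gy of x-rays, without overlap, a rise of 1.32 ± 0.21 or 2.50-fold (adjusted p = 0.000499). Klrk1 ran from -1.83 through -1.59 to -1.08 in controls and from -0.89 through -0.35 to 0.03 after irradiation, again apart, a rise of 1.13 ± 0.19 or 2.18-fold (adjusted p = 0.000747). Ncr1 ran from -0.79 through -0.44 to 0.26 and from 0.02 through 0.84 to 1.08, with an overlap, a rise of 1.04 ± 0.23 or 2.05-fold (adjusted p = 0.00498). Klrd1 was the receptor without a call, at 0.04 ± 0.30 (95% interval -0.62 to 0.70).

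Both transcription factors rose. Tbx21 ran from 1.35 through 2.10 to 2.17 in controls and from 2.40 through 2.74 to 3.35 after 4 Gy of x-rays, without overlap, a rise of 0.94 ± 0.20 or 1.91-fold (adjusted p = 0.00316). Eomes ran from -0.63 through -0.46 to -0.04 in controls and from -0.11 through 0.40 to 0.90 after irradiation, with a slight overlap, a rise of 0.83 ± 0.19 or 1.77-fold (adjusted p = 0.00486). Klrb1c, Eomes and Nkg7 each had a second, dimmer probe, which in the same comparison gave 1.498 ± 0.22 (adjusted p over all probes = 0.000326), 0.89 ± 0.16 (adjusted p = 0.00151) and 0.94 ± 0.17 (adjusted p = 0.00118).

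Several measured facts stand beside this result. The 4 Gy arrays of day 7 were all scanned on 1 date and the controls on another, so scan date and exposure cannot be told apart. Median probe intensity was 46.2 to 96.4 on these 4 Gy arrays, against 32.2 to 50.5 in the controls, and its part was not tested. Hepatocyte markers were above the highest control in 3 of the 6 irradiated mice (replicates 2, 4 and 6). In the other 3 mice against the 6 controls, Gzmb (1.73), Klrb1c (1.38), Klrk1 (1.13) and Eomes (0.93) were still called, while Ncr1 (1.14), Tbx21 (0.98) and Nkg7 (0.81) were not, and Klrd1 was at 0.47. The mean of neutrophil markers ran from 2.38 to 3.63 after irradiation against 1.83 to 2.66 in controls and that of red cell markers from 4.91 to 5.85 against 3.80 to 4.55, and their part was not tested. Leaving out 1 mouse at a time gave 3 to 7 called members, with Gzmb, Klrb1c and Klrk1 called in 12 of 12 fits, Tbx21 in 10, Eomes in 4, Nkg7 in 4 and Ncr1 in 3. With the normexp background correction no member was called, with differences from -0.28 to 1.47, and 182 genes of the whole array were then called higher.

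No member was called at day 7 after the other 3 exposures. After 0.25 Gy of neutrons Gzmb was at 2.35, 2.42, 2.33, 1.76 and 2.50, and after 1 Gy of x-rays at 2.84, 1.93, 2.66, 2.29 and 1.45, within or near the control range. After 1 Gy of neutrons it ran from 2.27 through 2.58 to 2.89. The called shares over all genes in either direction were 0.566%, 3.74% and 36.2% for these 3 exposures, and the members' median differences were -0.01, -0.11 and 0.05. At an unadjusted p below 0.05 there were 1 gene after 0.25 Gy of neutrons, 1 after 1 Gy of x-rays and 3 after 1 Gy of neutrons. Over all 16086 genes there were 3689, 4129 and 10051 in the same order.

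Eomes was the member nearest to a call in these groups. It differed from controls by 0.40 ± 0.16 after 0.25 Gy of neutrons (adjusted p = 0.163), 0.41 ± 0.17 after 1 Gy of x-rays (adjusted p = 0.151) and 0.63 ± 0.15 after 1 Gy of neutrons (adjusted p = 0.00325, with an unadjusted p above the threshold). Its second probe gave 0.11, 0.12 and -0.30 in the same comparisons, so the probes disagreed in direction after 1 Gy of neutrons. Klrd1 differed by -0.42 ± 0.16 after 1 Gy of neutrons (adjusted p = 0.0424).

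The direction after 1 Gy of neutrons at day 7 depended on the reference chosen. When arrays were centred on the added spike-in RNA in place of the median probe, all 10 members were called lower, from -2.47 to -1.42, but the median of all genes was then -2.10, so the members lay on both sides of it. Spike-in centring shifted the median difference of all genes at day 7 by -2.05 after 1 Gy of neutrons, -1.13 after 0.25 Gy of neutrons, -0.93 after 1 Gy of x-rays and 0.22 after 4 Gy of x-rays. At day 1 the shifts were 0.49, 0.15 and 0.27 after 1 Gy of neutrons, 1 Gy of x-rays and 4 Gy of x-rays, and 0.017 after 0.25 Gy of neutrons. At day 3 they were -0.24 after 0.25 Gy of neutrons and -0.76 after 1 Gy of x-rays. After 4 Gy of x-rays at day 7, 6 members were still called higher with that reference, with a median of 1.10. Red cell markers, all 8 of which rose after 1 Gy of neutrons at day 7 with a median of 2.82 on the main scale, moved with the same arrays, and their part was not tested.

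At day 7, 4 Gy of x-rays was set directly against 1 Gy of x-rays and 1 Gy of neutrons, but not against 0.25 Gy of neutrons, and 5 of 10 members differed in each. Compared with 1 Gy of x-rays, 5 of 10 members were called higher, against 3.67% of all genes, and 6 did not overlap, against 6.17%: Gzmb by 1.72 ± 0.26 (adjusted p = 0.0017), Klrb1c by 1.21 ± 0.21 (adjusted p = 0.00367), Ncr1 by 1.22 ± 0.25 (adjusted p = 0.00707), Klrk1 by 1.13 ± 0.25 (adjusted p = 0.00989), Tbx21 by 1.09 ± 0.22 (adjusted p = 0.00661), and Prf1 by 0.67 ± 0.22 without a call (adjusted p = 0.0481). The same 5 called genes were lower after 1 Gy of neutrons than after 4 Gy of x-rays, against 14.7% of all genes, by -1.37 ± 0.18 for Gzmb, -1.33 ± 0.17 for Klrb1c, -0.99 ± 0.19 for Ncr1, -1.07 ± 0.22 for Klrk1 and -0.95 ± 0.18 for Tbx21. All but Klrk1 of these did not overlap, against 16.6% of all genes. With scan date as a term, Gzmb alone kept its call in the latter comparison (-1.69 ± 0.34, adjusted p = 0.00331), the others being at -1.01 ± 0.30 for Klrb1c, -1.18 ± 0.44 for Klrk1, -1.09 ± 0.35 for Tbx21 and -0.75 ± 0.37 for Ncr1. In the comparison with 1 Gy of x-rays the same term left 4 of the 5 called, all but Klrk1 (1.14 ± 0.28, adjusted p = 0.0227). Without the arrays high in hepatocyte markers 3 and 4 genes were called in the respective comparisons. No member was called in either direction between 1 Gy of neutrons and 1 Gy of x-rays at day 7, against 20% of all genes, nor between the neutron doses, against 28%.

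In the 4 comparisons made between irradiated groups of day 1 no member was called; 0.25 Gy of neutrons was not set against x-rays. None was called between 1 Gy of neutrons and 1 Gy of x-rays (9.65% of all genes called in either direction), 1 Gy of neutrons and 4 Gy of x-rays (0.0311%), the x-ray doses (16.1%) or the neutron doses (1.63%). The interval for Gzmb was -0.06 to 1.03 in the first of these, -0.61 to 0.94 in the second and -0.45 to 1.09 in the third, so differences of up to that size remain possible. Between the neutron doses Gzmb differed by 1.55 ± 0.45 (adjusted p = 0.0783), and without the low mouse of the 0.25 Gy group by 1.11 with a call (adjusted p = 0.00741).

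**Figure D3:**
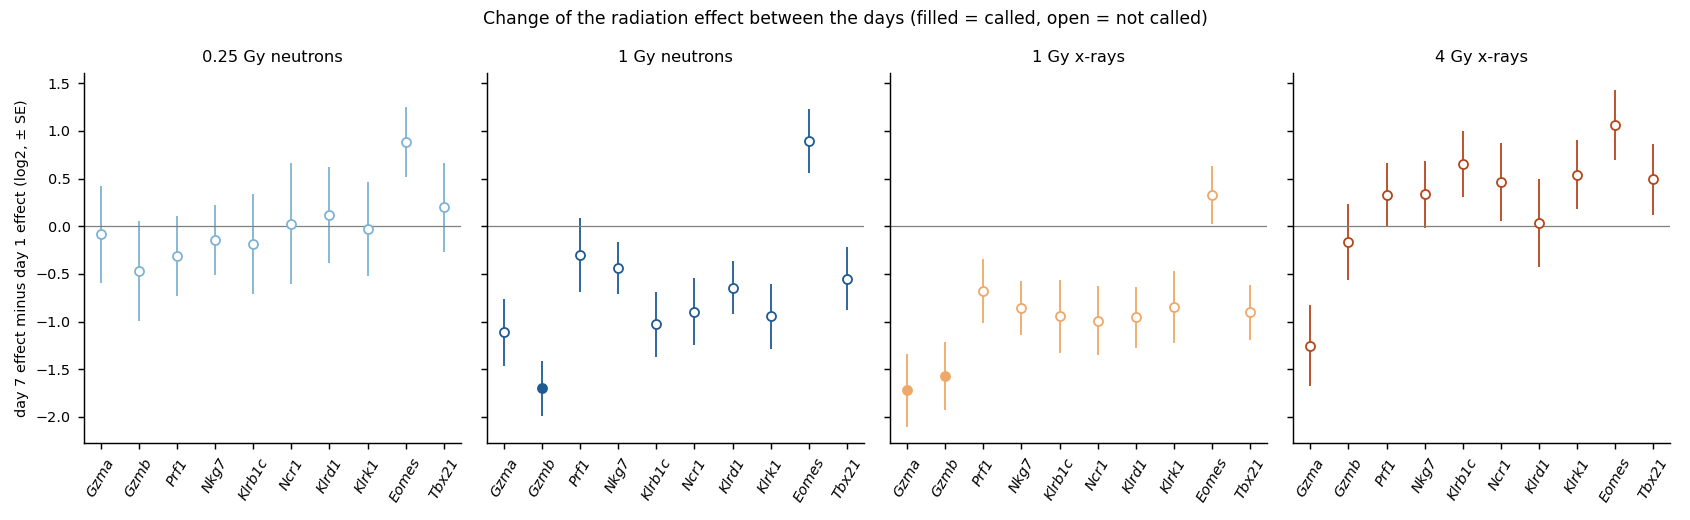
Effect of each exposure at day 7 minus its effect at day 1 (vertical axis, log2 ± SE) for each gene, with filled points for those that passed the test. The 3 filled points are Gzmb after 1 Gy of neutrons (-1.70) and Gzma (-1.72) and Gzmb (-1.57) after 1 Gy of x-rays. Eomes is above 0 in all 4 panels, at 0.32 to 1.06, without a call. It is below 0 in the first 3 panels when arrays are centred on spike-in RNA, where the median of all genes is -1.14, -2.64 and -1.14.

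The change of each effect from day 1 to day 7 was tested as an interaction. For 1 Gy of neutrons the effect on Gzmb was lower at day 7 by -1.70 ± 0.28 (adjusted p = 5.8e-05), the 1 member of 10 called lower, against 7.95% of all genes. For 1 Gy of x-rays the effects on Gzma (-1.72 ± 0.38, adjusted p = 0.00477) and Gzmb (-1.57 ± 0.35, adjusted p = 0.00523) were lower at day 7, against 2.15% of all genes called lower. For 4 Gy of x-rays no member was called (19.8% of all genes in either direction): Gzmb differed by -0.16 ± 0.40, with an interval from -0.99 to 0.66, and Gzma by -1.25 ± 0.43 (adjusted p = 0.0243). For 0.25 Gy of neutrons none was called either (0.752%). With scan date as a random block both x-ray calls ended, at -1.73 ± 0.46 for Gzma (adjusted p = 0.0276) and -1.61 ± 0.44 for Gzmb (adjusted p = 0.0338), since the unadjusted p no longer passed.

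The controls, which enter each interaction, were not level over the week. Between day 1 and day 7 controls, Gzma rose by 1.02 ± 0.19 (adjusted p = 0.0162), Gzmb by 0.96 ± 0.19 (adjusted p = 0.0174) and Nkg7 by 0.51 ± 0.12 (adjusted p = 0.0226), 3 of 10 members against 2.57% of all genes called higher. The groups of controls did not overlap for these 3 and for Prf1 (0.72 ± 0.22, adjusted p = 0.0487), against 4.22% of all genes. Gzma was called in 11 of 11 fits that left out 1 mouse, Gzmb in 9 and Nkg7 in 1. The day 1 and day 7 controls were scanned on separate dates, so the day and the date cannot be separated here, and the hepatocyte marker mean was 4.74 in day 1 controls against 0.61 in day 7 controls. On the centred scale Gzma after 1 Gy of x-rays went from a mean of 7.38 at day 1 to 6.68 at day 7, while the control mean went from 6.18 to 7.20.

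The group means of Gzmb are ordered here by level, which is centred within each array. Highest was 4 Gy of x-rays at day 7 (3.96 ± 0.37, SD), followed by 1 Gy of neutrons at day 1 (3.32 ± 0.45), 4 Gy of x-rays at day 1 (3.16 ± 0.81) and 1 Gy of x-rays at day 1 (2.84 ± 0.47). Ranges of neighbouring groups in this order overlapped. The control means were 1.33 ± 0.14, 1.52 ± 0.38 and 2.30 ± 0.41 at days 1, 3 and 7, and as differences from the controls of their own day the same 4 groups stood at 1.66, 1.99, 1.82 and 1.51, another order. Klrb1c was highest after 4 Gy of x-rays at day 7 (2.42 ± 0.29), with 1 Gy of x-rays (1.70 ± 0.62) and 1 Gy of neutrons (1.67 ± 0.60) at day 1 next, and its control means were 0.65 ± 0.21, 0.79 ± 0.26 and 1.10 ± 0.43.

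**Figure D4:**
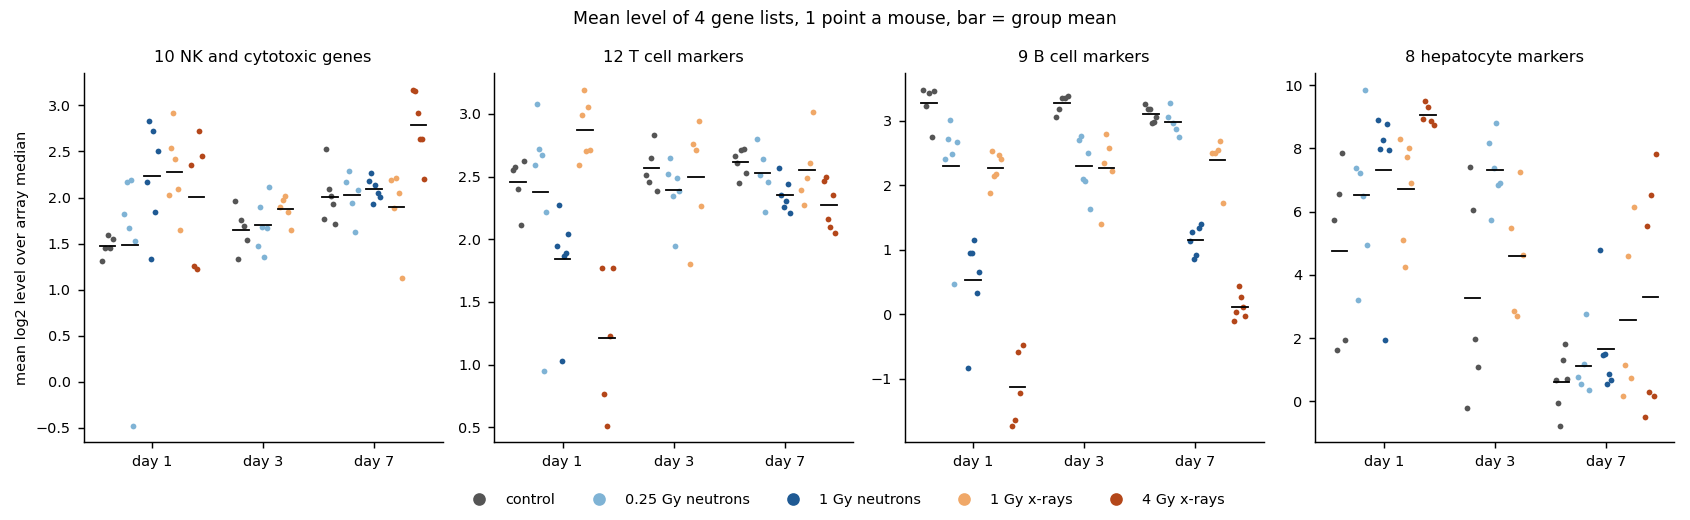
Mean level over the genes of each list in every mouse (vertical axis, log2 relative to the array's median detected probe) for the 10 NK and cytotoxic genes, 12 T cell markers, 9 B cell markers and 8 hepatocyte markers, by day and exposure, with a bar at the group mean. At day 7 after 4 Gy of x-rays the NK and cytotoxic mean runs from 2.21 to 3.17 and the B cell mean from -0.11 to 0.43, against 1.72 to 2.53 and 2.96 to 3.26 in the controls.

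Markers of other lymphocytes were measured in the same blood. All 9 detected B cell markers fell at day 7 after 4 Gy of x-rays, with a median of -2.90, against 8.11% of all genes called lower, and 2 of 12 T cell markers fell, Cd8a by -1.29, with a median of -0.03 and none higher. At day 1 T cell markers fell for 4 of 12 genes after 1 Gy of neutrons (median -0.95) and for 7 of 12 after 4 Gy of x-rays (median -1.55), where Cd4 rose by 2.42, while after 1 Gy of x-rays 1 of 12, Lat, rose and none fell (median 0.37). All 9 B cell markers fell after 1 Gy of neutrons and after 4 Gy of x-rays at day 1, and 7 of 9 after 1 Gy of x-rays. The shares of all genes called lower at day 1 were 10.7% after 1 Gy of neutrons, 3.81% after 1 Gy of x-rays and 16.6% after 4 Gy of x-rays. The difference between the NK and cytotoxic genes and these lists was not tested.

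Other genes of the NK pathway, from lists chosen with earlier results of these data known, were counted in the same comparisons. Of all genes, 5.63%, 2.67% and 12.8% were called higher at day 1 after 1 Gy of neutrons, 1 Gy of x-rays and 4 Gy of x-rays, and 7.71% at day 7 after 4 Gy of x-rays, and the counts that follow are to be read against these shares. Of 22 further NK receptors detected, 7 rose and none fell at day 7 after 4 Gy of x-rays, with a median of 0.56. Cd160, a receptor for a herpesvirus entry mediator, led by 1.76 ± 0.30 (adjusted p = 0.000982). Its level was low, at -3.46 in the controls and -1.70 after irradiation, so the size of its rise is less certain. At day 1, 5 of 22 rose after 1 Gy of neutrons (median 0.83), 3 after 1 Gy of x-rays (median 0.87, Klrc1, which encodes the inhibitory NKG2A, by 1.43 ± 0.23) and 1 after 4 Gy of x-rays (median 0.76, the inhibitory Klrb1b by 1.77 ± 0.26), the last a share below that of all genes. At day 7 after 1 Gy of neutrons none of the 22 was called, with a median of -0.03.

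Of 14 genes of granule contents and release, 5 rose at day 7 after 4 Gy of x-rays (median 0.50). The largest rise was that of Gzmc, another granzyme, by 1.59 ± 0.16, from a low level of -3.20 in the controls to -1.61. At day 1, 4 rose after 1 Gy of neutrons and 5 after 1 Gy of x-rays, led by Stx11, a syntaxin needed for granule release, by 1.65 ± 0.32 and 1.26 ± 0.28, and 3 after 4 Gy of x-rays, led by Lamp1 by 1.65 ± 0.16, the last a share close to that of all genes. Stx11 was also the 1 gene of this list that rose at day 3 after 1 Gy of x-rays (1.63 ± 0.30, adjusted p = 0.0408), where 1.22% of all genes rose. Only Gzmk of the list rose after 1 Gy of neutrons at day 7, by 3.28 ± 0.48, against 18.4% of all genes called higher, a larger share than in the list. No gene of the list fell in any comparison with the controls of the day.

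Among 7 cytokines, chemokines and death ligands, 3 rose at day 1 after 1 Gy of neutrons and 5 after 1 Gy of x-rays, led by Fasl, a death receptor ligand, by 1.44 ± 0.25 and 1.59 ± 0.23. None was called after 4 Gy of x-rays at day 1 despite a median of 0.78, and 2 rose at day 7, led by the chemokine Xcl1 by 1.26 ± 0.20. Of 12 transcription factors, Id2, which is needed for NK development, rose at day 1 by 1.43 ± 0.18, 1.43 ± 0.15 and 1.65 ± 0.18 after 1 Gy of neutrons, 1 Gy of x-rays and 4 Gy of x-rays. Ets1 alone fell, by -1.65 ± 0.22 and -2.51 ± 0.28 after the first and the last of these. A count of 1 of 12 is too small to be set against the shares of all genes. At day 7 after 4 Gy of x-rays 3 of 12 rose, led by Gata3 by 1.61 ± 0.14.

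Cytokine and homing receptors moved both ways at day 7 after 4 Gy of x-rays. In this list 5 of 17 were higher and 3 lower, among them Cxcr3 (1.47 ± 0.20) and Il21r (-1.18 ± 0.25). The shares over all genes were 7.71% higher and 8.11% lower. Of 11 signalling adaptors and kinases, Zap70 rose by 0.81 ± 0.15 and Syk, which B cells also express, fell by -0.80 ± 0.17 in that comparison. In the 4 Gy group of day 1, 4 of 17 receptors fell, led by Cx3cr1 (-2.13 ± 0.31), and none rose, against 16.6% of all genes called lower, so that this count was near the background. For the ligands of NKG2D, 1 of 9 genes was detected, by a probe named Raet1b. Raet1d had no probe by that name, and whether the Raet1b probe tells the Raet1 genes apart was not tested. Its signal rose by 4.23 ± 0.53 (adjusted p = 0.000109) in the 4 Gy x-ray group of day 1. Raet1b stood at 2.34 to 5.93 in that group against 0.16 to 0.65 in the controls. It varied widely in others, from 0.22 to 5.83 after 0.25 Gy of neutrons at day 1 and from 0.57 to 3.06 in day 3 controls. Its highest group mean was 4.89, after 1 Gy of neutrons at day 7, where not every control mouse had a value. Hepatocyte markers had a mean of 1.64 in that neutron group and 9.07 in the 4 Gy group of day 1, and their part was not tested.

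**Figure D5:**
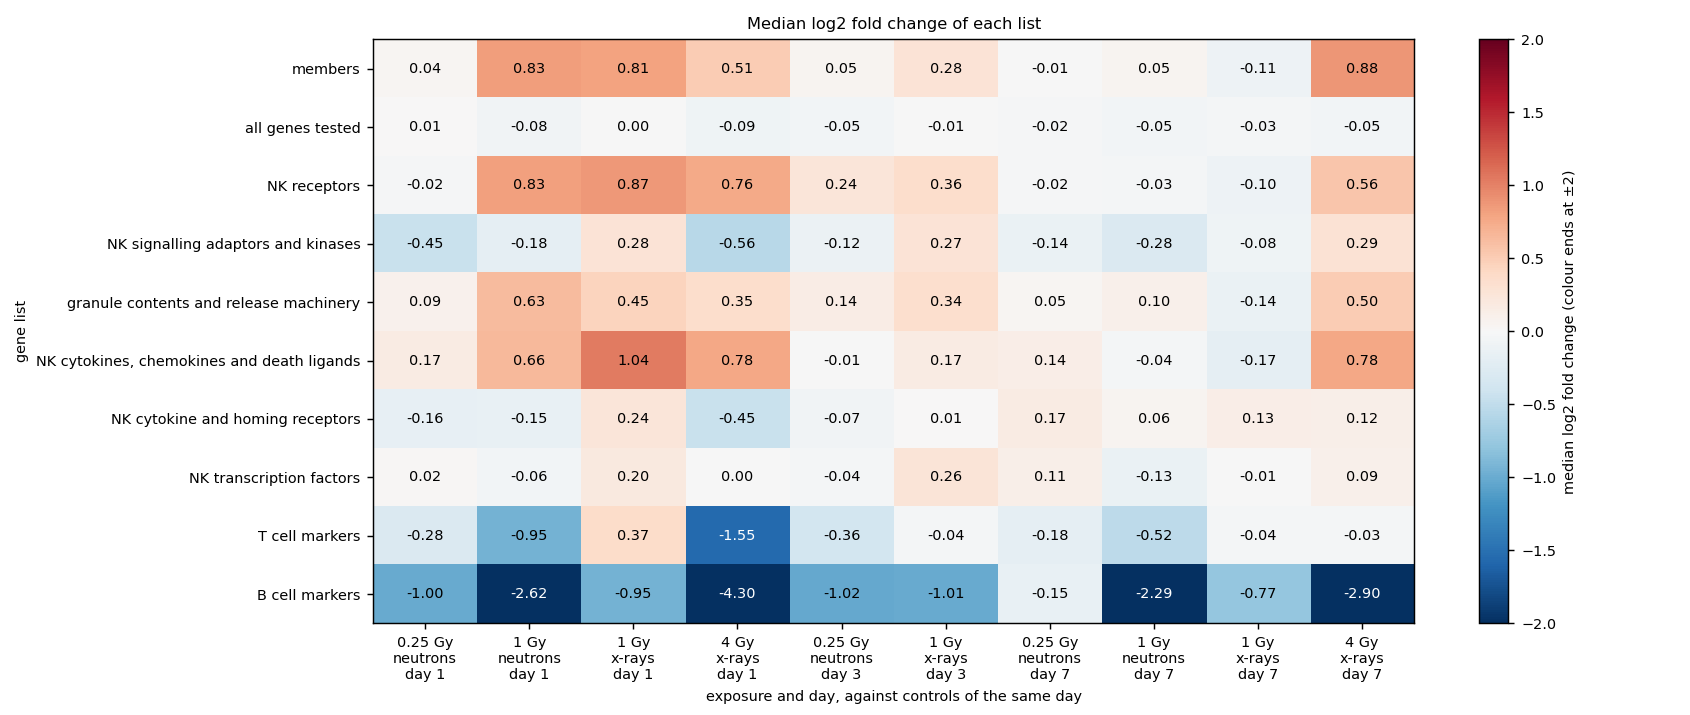
Median log2 fold change against the controls of the same day (colour and number) for each gene list (rows) in each exposure and day (columns), with all 16086 genes tested as a row of their own. The NK and cytotoxic genes read 0.83, 0.81 and 0.51 at day 1 for the 3 higher exposures and 0.88 at day 7 for 4 Gy of x-rays, where B cell markers read -2.90 on the scale centred on each array's median probe.

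Within groups the members varied together from mouse to mouse. After removal of the group means, the 45 pairs of members correlated at r = 0.607 (Gzma with Klrk1) to 0.900 (Klrb1c with Ncr1), with a median of 0.761 over 72 arrays; the points share an array and its centring, and the low mouse described above is among them, so these values are descriptive. The 10 other genes most like the members' mean by the same measure, out of 15326 compared, were Klra4 (r = 0.933), Klra22 (0.932), the transcript ENSMUST00000122033 (0.930), Klra15 (0.924), Samd3 (0.923), Klra16 (0.921), Rasl12 (0.920), Ccl5 (0.919), Klra10 (0.919) and Cst7 (0.915). The Klra genes encode Ly49 receptors, which have near-identical copies, so their probes may not tell the copies apart.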

How the data were processed

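The authors hybridized Cy3-labelled, globin-cleared blood RNA from 72 mice to 1-colour Agilent arrays and read them with Agilent Feature Extraction 12.0.2, per the submitters' processing notes. The deposited scanner files give background-corrected intensity for 44397 spots, 1377 of them controls. A deposited table of normalized log2 values was not used: only 12 of its 72 columns followed their own array and 21 followed an array of another condition. From the intensities, log2 values were taken, spots that the scanner software marked as non-uniform or outliers were dropped, the rest were averaged per probe, and the array's median over 19808 detected probes (flagged on fewer than 25% of the 56 arrays of days 1 and 7) was subtracted. Each gene was read from its brightest detected probe. Pairwise limma 3.58.1 fits in R 4.3.3 (4 groups for interactions) were tested on simulated data first. The number of arrays limits the precision. The named genes are the 10 members, from each list at most the strongest rise and the strongest fall among called genes, and the 10 genes most like the members. The members and lists were chosen with earlier results of these data known. Alternatives were normalization, background, detection, scan date, slide, replicate number and leaving out each mouse.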

Additional observations from a re-analysis of the deposited data

Results flagged for a closer look

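In groups of 4 to 10 mice, the highest or lowest value of a member was set against Dixon's critical value. Of 130 groups of values 17 stood out, where chance gives about 5%. The low mouse of the 0.25 Gy neutron group at day 1 (replicate 5) accounted for 9 of them, with levels of 4.22 for Gzma, -0.43 for Gzmb, 0.037 for Prf1, -3.50 for Ncr1, -0.018 for Klrd1, -4.10 for Klrk1, -2.17 for Eomes, -0.58 for Tbx21 and 3.02 for Nkg7, each the lowest of its group. After 0.25 Gy of neutrons at day 7, replicate 4 was low for Gzmb (1.76) and Nkg7 (4.63). After 1 Gy of x-rays at day 7, replicate 5 was low for Prf1 (0.78) and Klrb1c (0.43). After 1 Gy of x-rays at day 3, replicate 1 was high for Ncr1 (0.81) and Tbx21 (3.19). Klrd1 was low in day 1 control replicate 4 (1.70), and Nkg7 in replicate 3 of the 1 Gy neutron group at day 1 (4.10).

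The effect differed between day 7 and day 1, by a test of the difference itself, for Gzmb after 1 Gy of neutrons (-1.70) and for Gzma (-1.72) and Gzmb (-1.57) after 1 Gy of x-rays. Levels in the controls also differed between these days.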

How the results depend on the processing

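No called direction reversed under any alternative run. Leaving out 1 mouse gave 1 to 5 called members for 1 Gy of neutrons and 1 to 5 for 1 Gy of x-rays at day 1, 1 to 2 for 4 Gy of x-rays at day 1, 0 to 1 for 1 Gy of neutrons and 3 to 7 for 4 Gy of x-rays at day 7, 4 to 5 for 1 Gy of neutrons against 4 Gy of x-rays and 3 to 5 for 4 Gy against 1 Gy of x-rays at day 7, 0 to 1 for 1 Gy against 0.25 Gy of neutrons at day 1, 1 to 4 and 2 to 3 for the day interactions of 1 Gy of neutrons and 1 Gy of x-rays, and 1 to 3 between the controls. The higher count after 1 Gy of neutrons came without replicate 3 and that after 1 Gy of x-rays without replicate 6.

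Under spike-in centring the counts were 7 for 1 Gy of neutrons and 2 for 4 Gy of x-rays at day 1, 10 lower for 1 Gy of neutrons, 1 lower for 0.25 Gy of neutrons and 2 lower for 1 Gy of x-rays at day 7, 1 for 1 Gy against 0.25 Gy of neutrons at day 1, 10 and 9 for 1 Gy of neutrons against 4 Gy of x-rays and 4 Gy against 1 Gy of x-rays at day 7, and 10 and 9 for the interactions of 1 Gy of neutrons and 1 Gy of x-rays. The median of all genes was then -2.10, -1.15 and -0.96 against the day 7 controls, in the same order. It was -2.38 and 1.10 in the comparisons with 4 Gy of x-rays, and -2.64 and -1.14 in the interactions. For the day 1 comparisons it was 0.41, 0.18 and 0.40. These counts are thus not a result about the members alone. Shares of all genes called are not given in this section. Quantile normalization gave 2 for 1 Gy of neutrons at day 1, 1 lower for 1 Gy of neutrons at day 7 against controls and against 0.25 Gy, 2 for the neutron interaction and 1 between the controls. Normexp correction gave 0 for both x-ray doses at day 1, for 4 Gy of x-rays at day 7 against controls and against 1 Gy, for the 1 Gy x-ray interaction and between the controls, and 2 for 1 Gy of neutrons against 4 Gy of x-rays at day 7 and for the neutron interaction. The 75th percentile gave 1 for 1 Gy of x-rays at day 1. Without a detection filter 4 were called for 4 Gy of x-rays at day 7. With dim spots as missing, 4 were called for 1 Gy of x-rays at day 1 and 1 lower for 1 Gy of neutrons at day 7. The cause was not tested.

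With scan date as a term 1 was called for 1 Gy of neutrons against 4 Gy of x-rays at day 7. Treating date as random gave 1 for 1 Gy of x-rays and 2 for 4 Gy of x-rays at day 1, and 0 for the 1 Gy x-ray interaction. With the slide as a random block, chosen after seeing the data, they were 4 for 1 Gy of neutrons, 1 for 1 Gy of x-rays and 2 for 4 Gy of x-rays at day 1. Without arrays high in hepatocyte markers, also chosen after seeing the data, they were 4 and 3 for 4 Gy of x-rays at day 7 against controls and against 1 Gy. The replicate numbers do not pair the mice, whose deviations correlated from -0.53 to 0.65 between same-numbered arrays; the replicate block gave 3 for 1 Gy of neutrons against 4 Gy of x-rays at day 7, 4 for 1 Gy of x-rays at day 1, 5 for its interaction and 0 between the controls. Signal over background limits Klrk1 and the day 7 arrays after 1 Gy of neutrons most.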
